A study of Mus musculus with 90 samples.

Results

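The subunits of the ionotropic and metabotropic glutamate receptors and of the GABA-A receptors were followed through 90 bead arrays of mouse hippocampus and frontal cortex. The list holds 31 genes, taken by gene symbol with all of their probes, among 13076 symbols named on the array. Of these genes, 20 had a probe named here, with 28 probes in all, and 16 had a probe that passed the detection filter and were tested, among 9741 genes tested. The detection p-value sets a probe's signal against the array's negative controls. Detection meant a value under 0.01, and probes with it on at least 9 arrays were kept. The genes tested were the AMPA receptor genes Gria1, Gria2, Gria3 and Gria4, the NMDA receptor gene Grin2c, the kainate receptor genes Grik1, Grik4 and Grik5, the metabotropic receptor genes Grm4, Grm7 and Grm8, and the GABA-A receptor genes Gabra3, Gabrb1, Gabrb2, Gabrg1 and Gabrd. Probes of Grin2a, Grin2b, Grik2 and Gabrg3 did not pass, being detected on 1, 5, 0 and 0 of the 90 arrays. Grin1, Grin2d, Grin3a, Grik3, Grid1, Grm2, Grm3, Grm5, Gabra2, Gabra4 and Gabra5 had no probe named in the annotation used here and were not analysed here.

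All animals carried both transgenes of the APP/PS1 model, which forms the amyloid deposits of Alzheimer disease, and no group without the transgenes was analysed here. They received into the right lateral ventricle, from an osmotic pump, 40 µg per day of an antisense oligonucleotide (ASO) in 6 µL per day, starting at 18 weeks of age. The ASO was directed against Cd33, which encodes an inhibitory receptor of myeloid cells, or was a control ASO with no target. Infusion lasted 14 or 28 days, and tissue of every group was taken at 22 weeks. In the frontal cortex there were 9 arrays with the CD33 ASO and 9 with the control ASO at 14 days, and 14 and 14 at 28 days. In the hippocampus there were 9 and 9 at 14 days, and 13 and 13 at 28 days. Each array of a group came from another animal, and 43 of the 47 animals gave an array of both tissues. The frontal cortex was a piece of the left hemisphere in front of 1 coronal cut, so the labels do not limit it to cortical layers.

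Glutamate is the main excitatory transmitter of the forebrain. AMPA receptors are tetramers of GluA subunits that carry fast excitatory currents, NMDA receptors admit calcium when glutamate and depolarization coincide, and kainate receptors modulate release and excitability at particular synapses. Metabotropic glutamate receptors signal through G proteins, and those of group III (Grm4, Grm7, Grm8 here) mostly sit on presynaptic terminals and restrain transmitter release. GABA-A receptors are pentameric chloride channels in which alpha and beta subunits bind GABA between them, a gamma subunit commonly places the receptor at synapses, and a delta subunit marks receptors outside the synapse that carry tonic inhibition.

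The sequences upstream of 4 subunit genes are shown because these genes had the largest differences between the tissues, in each direction, among the subunit genes with an entry in the RefSeq promoter table (build GRCm38.p6). Of the 31 genes 21 had an entry. Each window holds the 250 bases before the annotated transcription start, and so lies outside the transcript. It spans chr9:4796235-4796484 on the minus strand for Gria4, chr5:70842618-70842867 on the minus strand for Gabrg1, chr9:42944372-42944621 on the minus strand for Grik4 and, for the first of its 2 annotated starts, chr5:71657671-71657920 on the plus strand for Gabrb1. Capitals mark matches on either strand to the GC box GGGCGG or the CCAAT box (letters CCAAT).
Gria4: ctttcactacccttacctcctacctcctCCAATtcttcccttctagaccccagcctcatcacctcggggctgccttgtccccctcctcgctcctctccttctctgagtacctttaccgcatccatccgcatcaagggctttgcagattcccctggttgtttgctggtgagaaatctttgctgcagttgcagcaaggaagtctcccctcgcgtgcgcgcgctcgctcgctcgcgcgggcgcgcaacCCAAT
Gabrg1: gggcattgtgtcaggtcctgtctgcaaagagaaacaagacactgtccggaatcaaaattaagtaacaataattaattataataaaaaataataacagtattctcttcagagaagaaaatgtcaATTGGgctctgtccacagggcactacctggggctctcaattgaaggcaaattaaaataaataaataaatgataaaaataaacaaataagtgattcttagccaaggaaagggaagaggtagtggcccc
Grik4: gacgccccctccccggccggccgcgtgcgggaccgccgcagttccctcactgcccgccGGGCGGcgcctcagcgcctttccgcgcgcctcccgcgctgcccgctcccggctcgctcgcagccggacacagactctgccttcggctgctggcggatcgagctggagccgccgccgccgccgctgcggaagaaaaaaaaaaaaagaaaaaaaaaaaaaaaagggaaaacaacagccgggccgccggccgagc
Gabrb1: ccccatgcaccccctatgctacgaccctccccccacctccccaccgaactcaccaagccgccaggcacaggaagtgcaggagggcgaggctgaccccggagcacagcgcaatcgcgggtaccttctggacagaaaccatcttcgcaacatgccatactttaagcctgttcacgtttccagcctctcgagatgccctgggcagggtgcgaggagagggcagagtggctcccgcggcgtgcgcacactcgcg
The Gria4 window held 2 CCAAT matches and the Gabrg1 window held 1, while the Grik4 window held 1 GC box and the Gabrb1 window neither. Over 32851 such windows of all genes, 33.9% held a CCAAT match and 32.7% a GC box, and over the 28 windows of subunit genes 11 and 13 did. The TATA box (TATAAA), the core of the cAMP response element (TGACG) and the E-box (CACGTG), also sought on both strands, were in 12.4%, 17.8% and 6.02% of all windows and in 3, 2 and 1 of the 28. GC content was 58.8% in the Gria4 window and 35.6% in the Gabrg1 window, against 69.6% for Grik4 and 64.4% for Gabrb1, with a median of 52.4% over all windows. Gabrg1 and Gabrb1 belong to 1 cluster of GABA-A receptor genes on chromosome 5, in which the protein-coding genes follow in the order Gabrg1, Gabra2, Cox7b2, Gabra4 and Gabrb1.

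Values are log2 normalized intensities, after background correction with an added offset of 16, which pulls differences of dim probes toward 0. The level of a probe depends on its sequence, so no gene was set against another by level. Differences are given with their standard error, and a difference was called at an adjusted p below 0.05 in limma, with Benjamini-Hochberg adjustment over the 9741 genes. Detection ranged over arrays from 42.8% to 51.6% of probes, arrays of 1 group correlated at 0.976 to 0.994, and the number of arrays limits the precision of each value. The 12 chips each held 1 tissue and all 4 of its groups. The targeted gene Cd33 was lower with the CD33 ASO in the frontal cortex at 28 days, by -0.90 ± 0.13, and in the hippocampus at 14 and 28 days, by -1.29 ± 0.17 and -1.46 ± 0.14 (adjusted p = 5.1e-05, 2.8e-05 and 5.5e-09). Only 2 of 9 and 1 of 13 hippocampal CD33 ASO arrays detected Cd33, at 14 and 28 days, so these hippocampal differences are against background and understate the ratio. In the frontal cortex at 14 days the difference of Cd33 was -0.69 ± 0.17 and was not called (adjusted p = 0.33). The arrays of 1 animal labelled CD33 ASO at 28 days had Cd33 in the control range, and results that turn on them are also given without them. In bulk tissue, fewer cells of a type and less RNA per cell cannot be told apart.

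The AMPA receptor genes divided between the tissues. Gria1, which encodes GluA1, the subunit most tied to activity-dependent insertion of receptors, had intensities of 9.11 to 10.23 with a median of 9.51 on the 46 frontal cortex arrays, against 10.66 to 11.56 with a median of 11.12 on the 44 hippocampal arrays. The tissues did not overlap, and Gria1 was lower in the frontal cortex in 43 of 43 animals. Averaged over the 4 groups, frontal cortex minus hippocampus was -1.59 ± 0.04 for Gria1 (adjusted p = 2.2e-53), a 3.00-fold lower intensity in the frontal cortex. Gria2 encodes GluA2, whose edited form keeps calcium out of the channel. Its intensities were 12.37 to 13.07, median 12.67, in the frontal cortex and 12.73 to 13.24, median 13.02, in the hippocampus. The groups overlapped, but 39 of 43 animals were lower in the frontal cortex, by -0.31 ± 0.03 on average (adjusted p = 1.4e-16).

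Gria4, which encodes GluA4, ran the other way. It was detected on 46 of 46 frontal cortex arrays, at 6.02 to 7.94 with a median of 6.92, and on 24 of 44 hippocampal arrays, where values were 4.96 to 6.69 with a median of 6.03. The tissues overlapped over part of their range, and 42 of 43 animals were higher in the frontal cortex. The difference was 0.99 ± 0.08 (adjusted p = 4.0e-19), and since many hippocampal values lay at background it understates the ratio. Gria3, encoding GluA3, had 6.91 to 8.01, median 7.43, in the frontal cortex and 7.04 to 7.88, median 7.42, in the hippocampus for the probe tested. That probe was higher in the frontal cortex in 22 animals and lower in 21, with a difference of 0.05 ± 0.05 that was not called (95% confidence interval -0.05 to 0.14, adjusted p = 0.37).

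**Figure D1:**
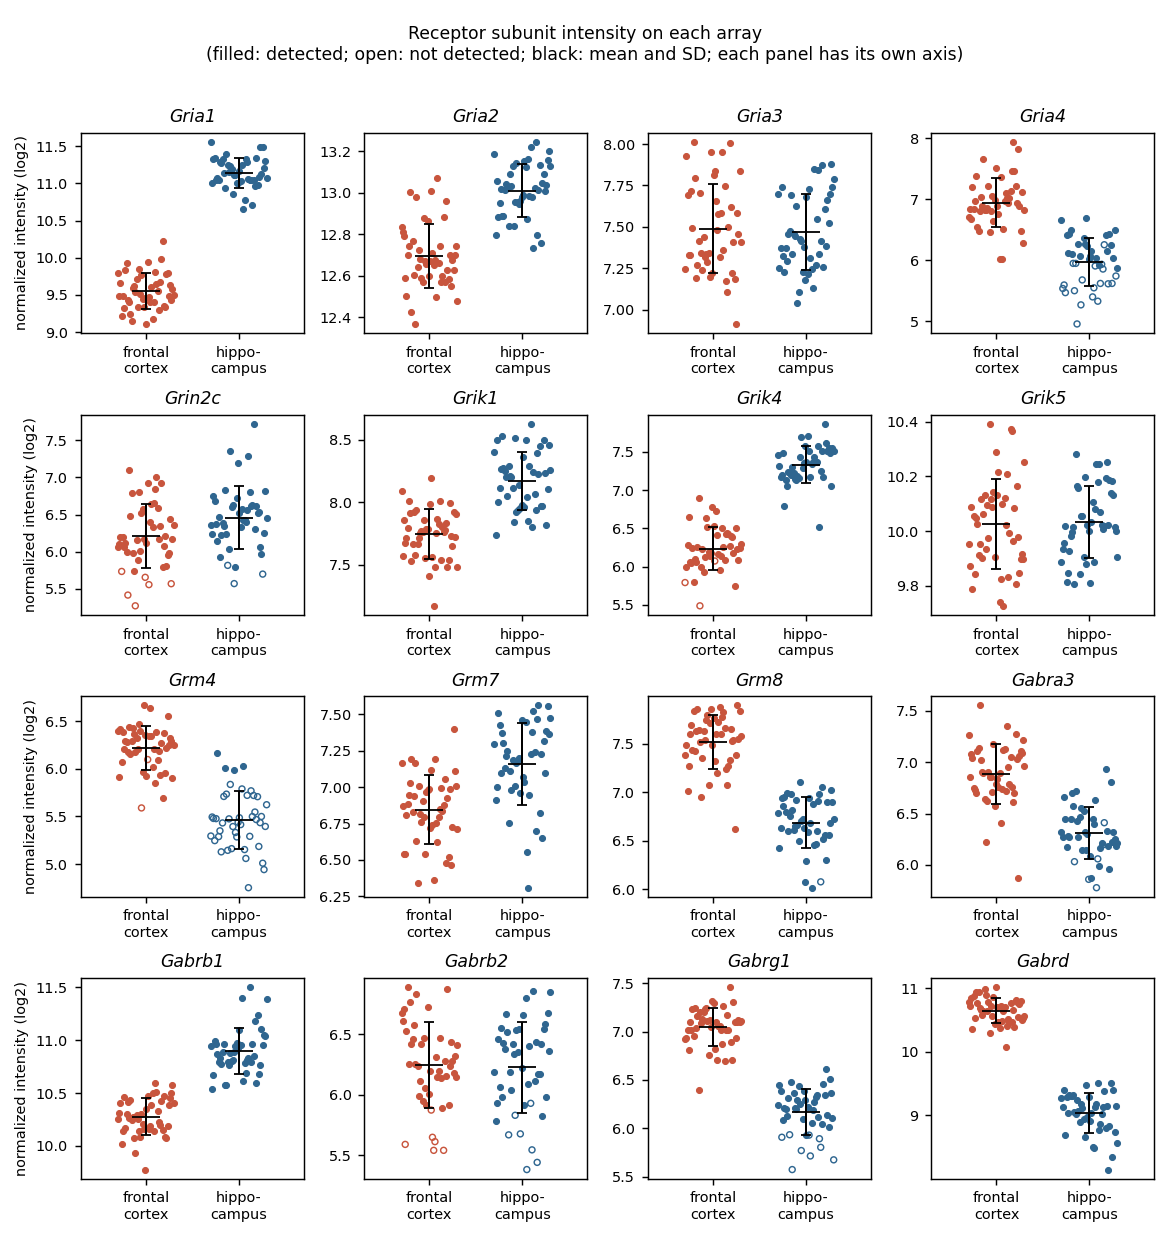
Log2 normalized intensity of the probe tested for each of the 16 subunit genes, with 1 point per array for 46 frontal cortex arrays (left in each panel) and 44 hippocampal arrays (right), filled where detected and open where not; black bars give mean and SD, and each panel has its own vertical axis. Only Gria1 and Gabrd have tissues that do not overlap, and Grm4 was detected on 4 of the hippocampal arrays.

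The single NMDA receptor gene tested, Grin2c, encodes GluN2C, a subunit of receptors with weak magnesium block. Its intensities spread widely, from 5.27 to 7.09 with a median of 6.17 in the frontal cortex and from 5.57 to 7.72 with a median of 6.44 in the hippocampus. It was lower in the frontal cortex in 33 of 43 animals, with a difference of -0.27 ± 0.09 (adjusted p = 0.0037). Taken group by group, the difference of Grin2c was called in the control ASO group at 14 days only (-0.48 ± 0.19, adjusted p = 0.024), and whether it differed between durations was not tested.

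Among the kainate receptor genes, Grik4 stood furthest apart. It encodes GluK4, a high-affinity subunit known for its abundance in hippocampal field CA3. Intensities were 5.49 to 6.90, median 6.23, in the frontal cortex, with detection on 43 of 46 arrays, and 6.51 to 7.87, median 7.35, in the hippocampus. Every one of the 43 animals was lower in the frontal cortex, and the mean difference was -1.11 ± 0.05 (adjusted p = 2.0e-34), 2.16-fold lower. Grik1, which encodes GluK1, had 7.17 to 8.19, median 7.76, in the frontal cortex against 7.74 to 8.63, median 8.20, in the hippocampus. It was lower in the frontal cortex in 41 of 43 animals, by -0.43 ± 0.04 (adjusted p = 7.0e-16). Grik5 encodes GluK5, the other high-affinity subunit. It had 9.73 to 10.39, median 10.02, in the frontal cortex and 9.81 to 10.28, median 10.02, in the hippocampus, with a difference of -0.01 ± 0.03 (95% confidence interval -0.07 to 0.04, adjusted p = 0.65).

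The group III metabotropic receptor genes did not move together. Grm4 had 5.59 to 6.66, median 6.26, on the frontal cortex arrays, 44 of 46 of which detected it, and 4.75 to 6.17, median 5.45, on the hippocampal arrays, 4 of 44 of which did. The difference was 0.75 ± 0.05 (adjusted p = 2.3e-22), in the same direction in 42 of 43 animals, and it understates the ratio because the hippocampal signal was near background. Grm4 passed the detection filter only through the frontal cortex, the tissue where it is high, so a difference was built into its selection and its p is no evidence of its own. Grm8 had 6.62 to 7.89, median 7.56, in the frontal cortex and 6.01 to 7.10, median 6.69, in the hippocampus. It was higher in the frontal cortex in 43 of 43 animals, by 0.83 ± 0.05 (adjusted p = 1.8e-25). Grm7, the low-affinity member that sits in the active zone of terminals, was lower in the frontal cortex, at 6.34 to 7.40 with a median of 6.86, against 6.31 to 7.56 with a median of 7.19 in the hippocampus. Its difference was -0.32 ± 0.05 (adjusted p = 7.1e-08), with 36 of 43 animals lower in the frontal cortex.

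Of the GABA-A receptor genes, Gabrd differed most. It encodes the delta subunit of extrasynaptic receptors, and had 10.08 to 11.01, median 10.65, in the frontal cortex, against 8.15 to 9.51, median 9.10, in the hippocampus. The tissues did not overlap and 43 of 43 animals were higher in the frontal cortex, by 1.60 ± 0.05 (adjusted p = 1.7e-46), a 3.04-fold higher intensity. Gabrg1, a gamma subunit gene, had 6.40 to 7.46, median 7.09, in the frontal cortex and 5.57 to 6.61, median 6.20, in the hippocampus, where 35 of 44 arrays detected it. Again 43 of 43 animals were higher in the frontal cortex, by 0.89 ± 0.04 (adjusted p = 4.9e-33). Gabra3, an alpha subunit gene, had 5.87 to 7.55, median 6.90, in the frontal cortex and 5.78 to 6.94, median 6.28, in the hippocampus. The difference was 0.58 ± 0.06 (adjusted p = 1.1e-15), with 39 of 43 animals higher in the frontal cortex.

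Both beta subunit genes behaved otherwise. Gabrb1 had 9.78 to 10.59, median 10.27, in the frontal cortex and 10.54 to 11.50, median 10.88, in the hippocampus, and was lower in the frontal cortex in 43 of 43 animals, by -0.61 ± 0.04 (adjusted p = 6.4e-27). Gabrb1 and Gabrg1, whose upstream windows are printed above, thus lie in the same chromosome 5 cluster and differed between the tissues in opposite directions. Gabrb2 had 5.54 to 6.89, median 6.25, in the frontal cortex and 5.38 to 6.86, median 6.28, in the hippocampus, a difference of 0.04 ± 0.07 (95% confidence interval -0.10 to 0.17, adjusted p = 0.62).

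By class, 1 of 8 ionotropic glutamate receptor genes was higher in the frontal cortex and 5 were lower. Gria3 is counted by the probe tested, which was not called, though its other kept probes were called higher, as given below. Of 3 metabotropic genes 2 were higher, Grm4 with its built-in difference among them, and 1 was lower. Of 5 GABA-A receptor genes 3 were higher and 1 lower. In all 13 of 16 subunit genes were called, 6 higher and 7 lower, against 74.3% of all genes tested. That share, 81.2%, is close to the background, so the count says nothing particular about receptor subunits. Without Grm4, 12 of 15 were called, 5 higher and 7 lower. Of all genes 34.4% were called higher in the frontal cortex and 40.0% lower. The median difference was 0.01 over the subunit genes and -0.02 over all genes. A difference at least as far from 0 was found for 1.33% of all genes in the case of Gria1, 1.29% for Gabrd, 2.89% for Grik4 and 3.84% for Gria4. Tissues that did not overlap were found for 2 of 16 subunit genes, against 3.44% of all genes tested.

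Of the 13 genes called for the mean, 12 were called in the same direction in each of the 4 groups of animals, and Grin2c was called in 1. Grm4 is among the 12 and in each group count below. It was kept only through the frontal cortex, so its calls are no evidence of their own. With the CD33 ASO at 14 days 13 of 16 genes were called, against 47.9% of all genes, and with the control ASO 13, against 50.4%. At 28 days the counts were 12 with the CD33 ASO, against 54.3% of all genes, and 12 with the control ASO, against 55.6%. At 14 days 7 were higher in the frontal cortex and 6 lower with the CD33 ASO (all genes 22.4% and 25.5%), and 6 and 7 with the control ASO (24.0% and 26.5%). At 28 days 6 were higher and 6 lower with the CD33 ASO (26.2% and 28.1%), as with the control ASO (27.2% and 28.4%). For Gria1 the difference lay between -1.66 and -1.49 in the 4 groups, and for Gabrd between 1.49 and 1.72. Grik4 lay between -1.28 and -1.02, Gria4 between 0.88 and 1.12, and Gabrb1 between -0.71 and -0.48. Gria3 was called with the CD33 ASO at 14 days only, at 0.35 ± 0.10 (adjusted p = 0.0028), and its 3 other differences were -0.05, 0.00 and -0.12.

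**Figure D2:**
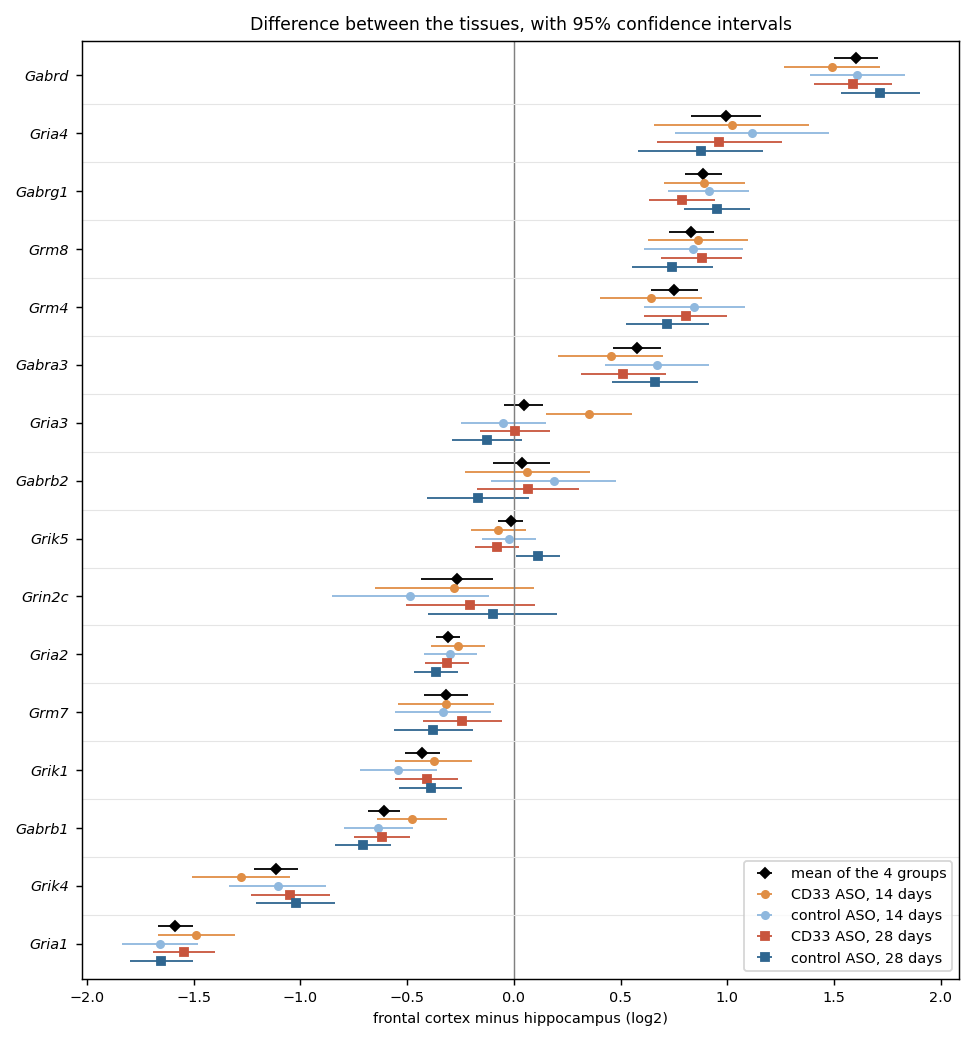
Frontal cortex minus hippocampus on the log2 scale for the 16 subunit genes, with 95% confidence intervals, for the mean of the 4 groups (black) and for each ASO and duration. Genes run from Gabrd at the top (1.60) to Gria1 at the bottom (-1.59), and the intervals of Gria3, Gabrb2 and Grik5 for the mean cross 0.

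Genes with several probes allowed a check within the array. The 3 Gria1 probes gave -1.59, -1.39 and -1.44, the 2 Gria2 probes -0.31 and -0.51, and the 2 Gabrd probes 1.60 and 1.53, each called in the same direction. The Gria3 probes disagreed. Where the probe tested gave 0.05, the others were higher in the frontal cortex, by 0.59 ± 0.07 and 0.28 ± 0.08 (adjusted p = 3.6e-12 and 0.0010 over all kept probes), in 38 and 31 of 43 animals. Within groups the Gria1 probes correlated at 0.75 to 0.82 over the arrays of a tissue and the Gabrd probes at 0.76 to 0.78, as a description over 46 or 44 arrays. The Gria2 probes correlated less, at 0.60 in the frontal cortex and 0.48 in the hippocampus. The Gria3 probe tested correlated with the others at 0.02 to 0.20, and those with each other at 0.43 in the frontal cortex and 0.37 in the hippocampus. Which transcripts each Gria3 probe reads was not examined, so the tissue difference of Gria3 has no single value here.

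**Figure D3:**
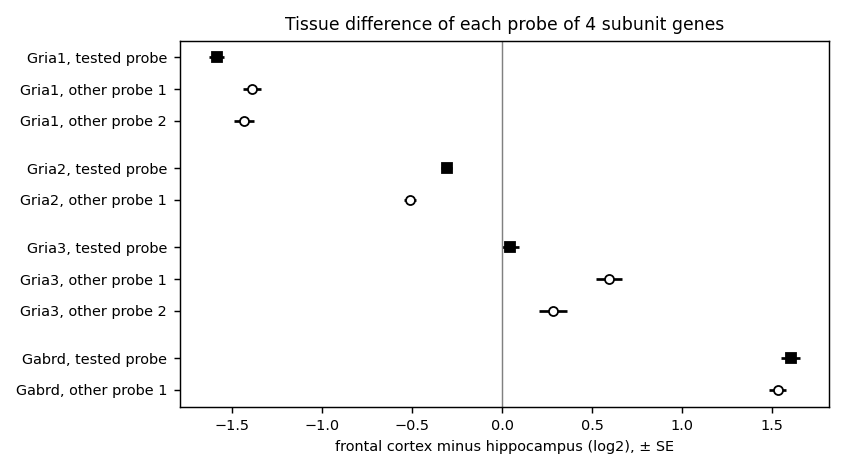
Frontal cortex minus hippocampus on the log2 scale, ± SE, for each kept probe of Gria1, Gria2, Gria3 and Gabrd; squares are the probes tested and open circles the other probes. Probes of each gene lie on the same side of 0. They also lie near each other, except for Gria3, whose probes run from 0.05 to 0.59.

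Marker lists for the labelled tissues and their neighbours were also compared between the tissues. Of 6 striatal marker genes tested of 9 listed, 6 were higher in the frontal cortex pieces, among them the dopamine receptor gene Drd1 (3.02 ± 0.08), and their summed intensity was 15006 to 25646 there against 2450 to 3582 in the hippocampus. Of 5 neocortical markers tested of 8, 4 were higher in the frontal cortex, including Cux2 (1.35 ± 0.04), and Fezf2 was lower (-0.89 ± 0.04). Their sum was 2423 to 3425 against 1656 to 2492. The dentate granule cell marker Prox1, the 1 tested of 6, was lower in the frontal cortex by -2.56 ± 0.06, with 44.9 to 140.6 against 337.6 to 974.3. Of 5 markers of CA pyramidal cells tested of 6, 3 were lower, Fibcd1 by -3.53 ± 0.04, and 2 were higher, Coch by 2.35 ± 0.08, with a sum of 7060 to 9663 against 11357 to 15069. Choroid plexus markers, 3 of 4, were all lower in the frontal cortex and varied most, at 399 to 2635 against 2120 to 43667. Interneuron markers, 5 of 6, were all higher in the frontal cortex, at 23644 to 29972 against 15569 to 24724, and microglial markers, 4 of 5, likewise, at 1958 to 3497 against 1269 to 2345. The part of tissue composition in the subunit differences was not tested.

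For the remaining lists, summed intensities were 231.2 to 2233 against 246.1 to 545.7 for olfactory bulb markers (3 of 3 higher, 5 listed), 1430 to 1959 against 1130 to 1947 for thalamic markers (1 of 3 higher, 4 listed), and 28195 to 34953 against 27926 to 36258 for astrocyte markers (1 of 5 higher and 3 lower). They were 28407 to 39975 against 26785 to 37466 for oligodendrocyte markers (2 of 4 lower, 5 listed), 977.2 to 1505 against 809.4 to 1314 for oligodendrocyte precursor markers (1 of 2 higher, 3 listed), and 9113 to 36149 against 6273 to 30558 for red blood cell markers (2 of 2 higher, 3 listed).

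Transcripts for proteins that traffic and anchor these receptors were called about as often as genes at large. Of 21 glutamate receptor partners tested of 32 listed, 7 were higher in the frontal cortex and 10 lower, against 34.4% and 40.0% of all genes, and of 7 GABA-A receptor partners tested of 9, 1 was higher and 4 lower. The shares called, 17 of 21 and 5 of 7, lie near the 74.3% of all genes. Nptx1, a pentraxin that clusters AMPA receptors, differed by -1.07 ± 0.05, and Cnih2, a cornichon that slows AMPA receptor deactivation, by -0.98 ± 0.05. Among the TARP family of AMPA receptor auxiliary subunits, Cacng8 was lower (-0.91 ± 0.06) while Cacng3 (0.80 ± 0.03) and Cacng4 (0.70 ± 0.07) were higher. Neto1, an auxiliary subunit of kainate receptors, was lower by -0.59 ± 0.04. Among the GABA-A receptor partners, the chloride exporter gene Slc12a5, which sets the driving force for GABA-A currents, was higher by 1.01 ± 0.10, and Shisa7, an auxiliary subunit, was lower by -0.53 ± 0.03. Nsf (-0.38 ± 0.02), Lhfpl4 (-0.17 ± 0.07) and Gphn (-0.15 ± 0.02), which encodes the synaptic scaffold gephyrin, were lower too.

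Of 12 genes of transmitter synthesis and transport tested of 15 listed, 6 were higher in the frontal cortex and 4 lower, 10 in all, also near the 74.3% of all genes. Glul, the glutamine synthetase of astrocytes, was higher by 1.14 ± 0.12, Slc32a1, the vesicular GABA transporter, by 0.80 ± 0.02, Gad1, which makes GABA, by 0.47 ± 0.03, and Abat, which breaks it down, by 0.44 ± 0.03. The neuronal glutamate transporter gene Slc1a1 was lower by -0.53 ± 0.02 and the vesicular glutamate transporter gene Slc17a6 by -0.41 ± 0.06. Of 16 other receptor genes of these families and of GABA-B, 1 was tested, Gabbr1, with 0.06 ± 0.05 (adjusted p = 0.19). The median differences of the partner and transmitter lists were 0.01, -0.15 and 0.17, against -0.02 over all genes.

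The ASO comparison sets the CD33 ASO against the control ASO. Lowering of Cd33 and other effects of the oligonucleotide cannot be told apart in it. In the frontal cortex at 14 days 0 of 16 subunit genes were called in limma, as were 0% of all genes, and at 28 days 0 of 16, against 0.472% of all genes. In the hippocampus at 14 days 0 of 16 were called, against 0.0205% of all genes (0.0103% higher and 0.0103% lower). At 28 days 1 of 16 was called, lower, against 0.411% of all genes, or 0.246% for those lower. At an unadjusted p below 0.05 the counts were 2, 1, 0 and 2 of 16, against 5.05%, 8.63%, 5.92% and 9.33% of all genes. Over the 16 genes and 4 comparisons the standard errors lay between 0.05 and 0.20, and the differences between -0.51 and 0.37. For Gria1, Gria2 and Gabrd, the 95% confidence intervals in the hippocampus at 28 days were -0.15 to 0.15, -0.13 to 0.08 and -0.16 to 0.33. For Grin2c, the most variable member, the interval in the hippocampus at 14 days was -0.72 to 0.05 (difference -0.33 ± 0.19, adjusted p = 0.86). The median over the subunit genes was -0.01 and -0.02 in the frontal cortex at 14 and 28 days and 0.02 and -0.01 in the hippocampus, and the median over all genes lay within 0.01 of 0.

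**Figure D4:**
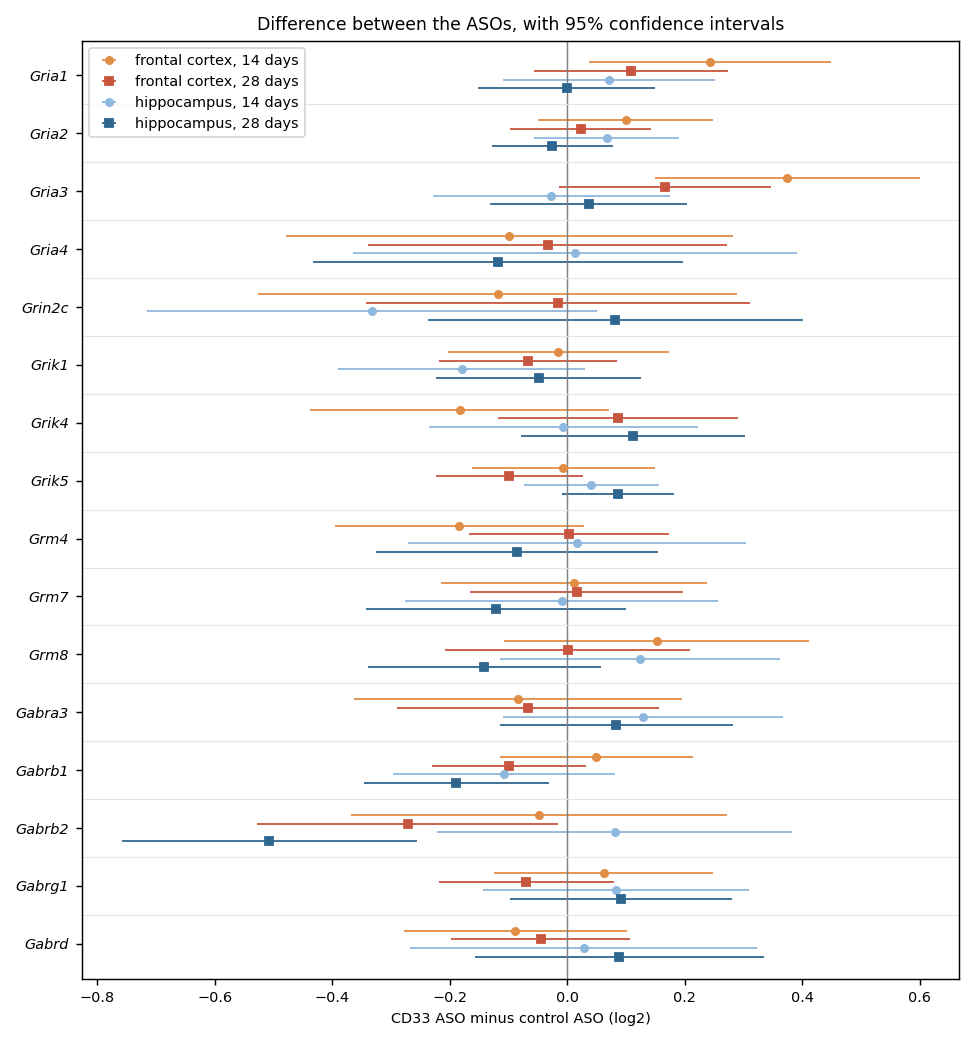
CD33 ASO minus control ASO on the log2 scale for the 16 subunit genes, with 95% confidence intervals, in the frontal cortex and the hippocampus at 14 and 28 days. Gabrb2 in the hippocampus at 28 days (-0.51) is the difference that passed the threshold, and Gria3 in the frontal cortex at 14 days (0.37) the largest positive one.

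Gabrb2, which encodes the beta 2 subunit found in much of the brain's synaptic GABA-A receptors, was the gene called. In the hippocampus at 28 days its intensity was 5.38 to 6.46 with a median of 5.98 on the CD33 ASO arrays, 10 of 13 of which detected it, against 6.04 to 6.85 with a median of 6.54 on the control ASO arrays, 13 of 13 of which did. The groups overlapped, with 7 of 13 CD33 ASO arrays below the lowest control array and 13 of 13 below the control median. Gabrb2 was lower with the CD33 ASO by 0.51 ± 0.12 on the log2 scale, at 70.4% of the control ASO level (adjusted p = 0.049 in limma). Within the 6 hippocampal chips the 28-day difference was negative in 6 of 6, from -0.88 to -0.15. Each chip held 2 or 3 CD33 ASO and 1 to 3 control ASO arrays of that duration. Differences within chips use the arrays of the contrast itself, so they are no separate evidence.

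The call lay at the threshold. With the chip as a fixed block the difference of Gabrb2 was -0.52 (adjusted p = 0.058), and without the animal whose Cd33 lay in the control range it was -0.50 (adjusted p = 0.060). Leaving out each of the 26 arrays in turn gave -0.55 to -0.45, with adjusted p from 0.027 to 0.10. The call held in 6 of these 26 fits, those without CD33 ASO replicate 3, 9, 10 or 12 or control ASO replicate 2 or 11. A second probe of Gabrb2 was detected on 0 of the 90 arrays and gives no check.

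In the other comparisons Gabrb2 was not called. In the frontal cortex at 28 days it averaged 6.08 ± 0.35 with the CD33 ASO and 6.35 ± 0.32 with the control ASO (SD, n = 14 each), a difference of -0.27 ± 0.13 (adjusted p = 0.53 in limma). That difference was negative within 6 of 6 chips (-0.42 to -0.006), which rests on the same arrays and is no separate evidence. At 14 days Gabrb2 averaged 6.27 ± 0.37 and 6.31 ± 0.36 in the frontal cortex and 6.21 ± 0.31 and 6.13 ± 0.45 in the hippocampus (SD, n = 9 each, CD33 ASO before control ASO in both). The 28-day hippocampal control group, at 6.52 ± 0.24 (SD, n = 13), had the highest mean of the 8 groups. The ASO effect on hippocampal Gabrb2 at 28 days minus that at 14 days was -0.59 ± 0.19 (adjusted p = 0.97), and the cortical minus the hippocampal effect at 28 days was 0.24 ± 0.17 (adjusted p = 0.97). The effect is therefore not shown to differ between durations or tissues.

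No gene of the marker lists was called in the same comparison (choroid plexus 0 of 3, red blood cell 0 of 2, interneuron 0 of 5, CA pyramidal 0 of 5), and the levels are given as values. In the hippocampus at 28 days the choroid plexus sum was 2120 to 43667 with a median of 11911 with the CD33 ASO, against 2565 to 41590 with a median of 27198 with the control ASO. The red blood cell sum was 6273 to 24078 with a median of 13322, against 10762 to 30558 with a median of 23076. Interneuron markers had medians of 18895 and 19939 and CA pyramidal markers of 14168 and 12770, in the same order of groups. Their part in the Gabrb2 difference was not tested.

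**Figure D5:**
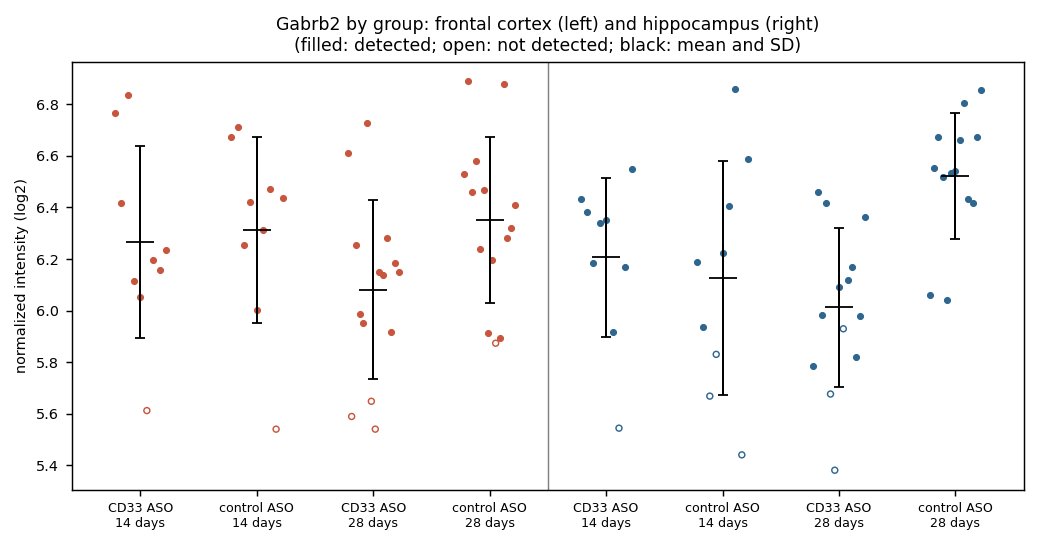
Log2 normalized intensity of Gabrb2 on each array, by ASO and duration, in the frontal cortex (left, 9, 9, 14 and 14 arrays) and the hippocampus (right, 9, 9, 13 and 13 arrays), filled where detected and open where not, with mean and SD in black. In the hippocampus at 28 days the CD33 ASO arrays lie at 5.38 to 6.46 and the control ASO arrays at 6.04 to 6.85.

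Gria3 had the largest positive difference between the ASOs. In the frontal cortex at 14 days the probe tested had 7.34 to 8.01, median 7.70, with the CD33 ASO, against 7.11 to 7.69, median 7.32, with the control ASO. All 9 CD33 ASO arrays lay above the control median and 5 above the highest control array. The difference was 0.37 ± 0.11, which was not called over all genes (unadjusted p = 0.0016, adjusted p = 0.67 in limma). At 28 days it was 0.17 ± 0.09 (adjusted p = 0.62), and over both durations the CD33 ASO arrays were higher within 6 of 6 chips (0.12 to 0.41). These chip differences use the arrays of the contrasts themselves, so they are no separate evidence. The other Gria3 probes gave 0.11 ± 0.16 and 0.22 ± 0.17 at 14 days (adjusted p = 0.99 and 0.96), and -0.06 ± 0.13 and 0.13 ± 0.14 at 28 days (adjusted p = 0.95 and 0.87). In the hippocampus the differences of Gria3 were -0.03 ± 0.10 and 0.04 ± 0.08 at 14 and 28 days. The cortical minus the hippocampal effect at 14 days was 0.40 ± 0.14 (adjusted p = 0.99).

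Of the other subunit genes, Gria1 in the frontal cortex at 14 days (0.24 ± 0.10, adjusted p = 0.92) and Gabrb1 in the hippocampus at 28 days (-0.19 ± 0.08, adjusted p = 0.40) had an unadjusted p below 0.05 in limma without being called. No partner or transmitter gene of the lists was called in an ASO comparison.

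The length of infusion was compared within each ASO, 28 against 14 days. With the CD33 ASO 0 of 16 subunit genes were called in the frontal cortex (0% of all genes) and 0 of 16 in the hippocampus (0.0308%). With the control ASO 0 of 16 were called in the frontal cortex (0%) and 0 of 16 in the hippocampus (0.0205%, with 0.0103% in each direction). At an unadjusted p below 0.05 in limma the counts were 2 and 1 with the CD33 ASO and 0 and 4 with the control ASO, against 5.18%, 9.60%, 4.57% and 10.9% of all genes. The 4 genes of hippocampal controls were Gabrb2 (0.39 ± 0.14), Grm8 (0.27 ± 0.11), Grik5 (-0.13 ± 0.05) and Grin2c (-0.39 ± 0.17), with adjusted p of 0.27 or higher. The ASO comparison at 28 days shares its control arrays with the last of these contrasts. The 14-day animals also had an interval after their pump was taken out, so infusion length and time since infusion cannot be told apart.

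Differences of the ASO effect between durations were called for 0 of 16 genes in the frontal cortex and 0 of 16 in the hippocampus in limma, as for 0% of all genes in both (unadjusted p below 0.05 for 0 and 1 of 16, against 2.68% and 4.71%). Differences of the ASO effect between tissues were called for 0 of 16 at 14 days and 0 of 16 at 28 days, again with 0% of all genes (unadjusted p below 0.05 for 1 and 1 of 16, against 4.70% and 5.09%). Those 2 genes were Gria3 at 14 days, given above, and Grik5 at 28 days, where the cortical minus the hippocampal effect was -0.19 ± 0.07 (adjusted p = 0.92).

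Members also differed in how steady they were within a group. The residual SD between animals was smallest for Grik5 (0.16 in the frontal cortex and 0.12 in the hippocampus) and Gria2 (0.16 and 0.13), and largest for Grin2c (0.44 and 0.42), Gria4 (0.41 and 0.41) and Gabrb2 (0.35 and 0.33). Gria4 and Grin2c followed the chip in both tissues, with an adjusted R2 of 0.37 and 0.35 for Gria4 and of 0.24 and 0.29 for Grin2c. Chip means of Gria4 ran from 6.64 to 7.43 in the frontal cortex and from 5.59 to 6.33 in the hippocampus, so that the 2 ranges did not meet. Chip means of Grin2c ran from 5.94 to 6.69 and from 6.09 to 6.90 and overlapped. Every chip held a single tissue, so differences between tissues are also differences between chips. Over 9 alternatives, the chip as a random block among them, the tissue difference of Grin2c lay between -0.27 and -0.20 (highest adjusted p = 0.029).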

How the data were processed

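RNA of 90 samples was measured on Illumina mouse bead arrays. The authors deposited a probe table of signal intensity, background-subtracted and not normalized between arrays, and a detection p-value for each probe and array. A second deposited table holds processed log2 values of the authors, of 1 distribution within each tissue, used as an alternative for the ASO comparisons only. BeadStudio, GenomeStudio and Partek are named per the submitters' processing notes; no source used here gives their settings. Groups and animal numbers came from the labels.

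The R 4.3.3 package limma 3.58.1 was used. Its neqc function corrected the background, added an offset of 16 and matched quantiles over 90 arrays. Probes detected (p under 0.01) on at least 9 arrays were kept, and the probe of highest mean stood for its gene, named from the platform annotation, which can be old. Genes were tested 2-sided with lmFit and eBayes, per tissue over 4 group means, and between tissues over all 90, treating the animal, numbered in the labels, as a random effect (duplicateCorrelation, 0.128). Benjamini-Hochberg adjustment ran over 9741 genes. The test was tried on simulated data.

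The members, gene lists and alternatives were chosen with earlier results of these data known. Every member is named, with up to 6 called genes of each partner list. Alternatives were the chip as a block, the replicate number as a block, no background correction, median scaling, other detection filters, each probe as a feature, the deposited log2 values and leaving out arrays. Upstream sequences were read from RefSeq (GRCm38.p6).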

Additional observations from a re-analysis of the deposited data

Results flagged for a closer look

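Within groups of 9 arrays, 5 of 64 gene and group combinations held 1 array far from the other 8 by Dixon's 95% criterion, where chance gives about 3.2. All 5 are low values of GABA-A receptor genes, which make up 5 of the 16 genes tested. With a count this near chance, no pattern of that class is read from them. In the 14-day control ASO group of the frontal cortex these were Gabra3 on replicate 8 (5.87, others 6.79 to 7.35), Gabrb1 on replicate 7 (9.78, others 10.19 to 10.51) and Gabrg1 on replicate 4 (6.40, others 6.93 to 7.31). In the hippocampus at 14 days they were Gabrg1 on replicate 7 of the CD33 ASO group (5.77, undetected, others 6.13 to 6.46) and Gabrd on replicate 7 of the control ASO group (8.34, others 8.87 to 9.40). The arrays with low Gabra3 and low Gabrd came from 1 animal.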

How the results depend on the processing

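Of 2416 values of the subunit genes recomputed under other settings, over 17 contrasts, 6 crossed the threshold and 0 reversed with a call. Each gene was followed there by its tested probe. The other Gria3 probes, called higher in the frontal cortex by 0.59 and 0.28, are therefore outside this count. Fits that left out 1 array are outside it too. For the mean tissue difference the 13 called genes were called, in the same direction, under 9 of 9 alternatives. Gria1 lay between -1.64 and -1.55, Gabrd between 1.55 and 1.60 and Grik4 between -1.12 and -0.87. Gria4 lay between 0.74 and 0.99 and Grm4 between 0.51 and 0.76. Grm4 was kept in the main test only through the frontal cortex, so its calls here are no evidence of their own. With the chip as a random block Grm7 was no longer called in the CD33 ASO group at 14 days (-0.30, adjusted p = 0.051), and with median scaling Grik5 was called in the CD33 ASO group at 28 days (-0.14, adjusted p = 0.039).

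The count for the ASO in the hippocampus at 28 days, 1 gene (Gabrb2), became 0 with the chip as a fixed block (adjusted p = 0.058), without a detection filter (0.057), with every probe as a feature (0.057) and without the animal with Cd33 in the control range (0.060). More features were adjusted over without the filter and with every probe; for the others the cause was not tested. It was 0 to 1 on leaving out each array in turn, chosen after seeing the data. Gabrb2 was called without background correction (-0.36, adjusted p = 0.040), with median scaling (-0.50, 0.036), with detection on at least 45 arrays (0.044) and with the authors' deposited log2 values (-0.40, 0.043). With the replicate number as a block Gabrb2 was still called (-0.51, adjusted p = 0.019), and the replicate block changed no call. Same-numbered CD33 and control ASO arrays of a tissue and duration had median correlations of their deviations from 0.03 to 0.20, not over 0.1 in every pair, so the numbers were not taken as pairs. Signal over background limits 8 of the 16 genes, each undetected on at least 1 array: Gria4, Grin2c, Grik4, Grm4, Grm8, Gabra3, Gabrb2 and Gabrg1.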
